A study of Mus musculus with 6 samples.

Results

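The genes Hoxa5, Hoxa7, Hoxa9, Hoxa10 and Hoxa11 of the HoxA cluster and the neighboring homeobox gene Evx1 were followed in intestinal tumor organoids of 3 Trp53 genotypes. These 6 genes, of 36172 in the deposited rpkm table, were taken by their symbols, and they had been chosen by their rpkm values in these libraries, which were higher in the organoids expressing mutant p53. Their differences between genotypes are therefore given as a description without a test. All mice were C57BL/6, carried the ApcΔ716 allele, a truncating mutation of the Wnt pathway inhibitor Apc, and had lost the other Apc allele in the tumors. Small intestinal tumors were cultured as organoids, which are epithelial cells grown in a gel, and the labels give an age of 15 to 20 weeks. ApcΔ716 Trp53+/+ organoids kept wild-type p53. ApcΔ716 Trp53flox/flox organoids carried the unrecombined LSL-R270H allele on both chromosomes, which is silent and leaves the cells without p53. In ApcΔ716 Trp53R270H/R270H organoids the stop cassette had been removed with villin-CreER, a tamoxifen-inducible Cre of the gut epithelium. Both alleles then expressed the missense protein p53R270H. The mice of this genotype were treated with tamoxifen, and the paper describes no such treatment of the Trp53+/+ and Trp53flox/flox mice. An effect of tamoxifen or of Cre activity therefore cannot be told apart from one of p53R270H. Each genotype had 2 libraries of poly(A) RNA, from organoids prepared independently from different mice.

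Hox genes encode homeodomain transcription factors that give cells their position along the body axis. They lie in clusters, and the order of the genes along the chromosome follows the order in which they are used from anterior to posterior. Polycomb complexes keep the clusters silent where they are not used and MLL complexes keep them active, and the gut epithelium retains regional Hox expression into adult life. Evx1, a relative of the Drosophila gene even-skipped, lies beyond Hoxa13, the most posterior HoxA gene.

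The 6 genes span 116.635 kb of chromosome 6 (GRCm38, GENCODE), from Hoxa5 at chr6:52201754-52204587 to Evx1 at chr6:52313498-52318378. Hoxa7 lies at chr6:52214491-52221854, Hoxa9 at chr6:52223100-52231089, Hoxa10 at chr6:52231197-52240854 and Hoxa11 at chr6:52242106-52245810. The Hoxa genes are on the minus strand, so the posterior genes have the higher coordinates, and Evx1 is on the plus strand. The following stretches are the 250 bases before the start sites in RefSeq (GRCm38.p6) of the members with the highest levels, of Hoxa7, and of Hoxa6, which lies between Hoxa5 and Hoxa7 and was listed at the floor of the table. They are written 5′ to 3′ on the strand of the gene, with CG pairs, the sites of DNA methylation, in capitals. Hoxa10 has 2 stretches because RefSeq gives a short and a long transcript with separate starts.
Hoxa6 (chr6:52208673-52208922, minus strand): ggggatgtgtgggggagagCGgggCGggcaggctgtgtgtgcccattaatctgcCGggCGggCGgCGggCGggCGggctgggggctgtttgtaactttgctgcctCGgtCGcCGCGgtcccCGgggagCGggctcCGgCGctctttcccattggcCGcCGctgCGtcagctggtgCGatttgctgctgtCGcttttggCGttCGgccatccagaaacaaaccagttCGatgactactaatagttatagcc
Hoxa7 (chr6:52218574-52218823, minus strand): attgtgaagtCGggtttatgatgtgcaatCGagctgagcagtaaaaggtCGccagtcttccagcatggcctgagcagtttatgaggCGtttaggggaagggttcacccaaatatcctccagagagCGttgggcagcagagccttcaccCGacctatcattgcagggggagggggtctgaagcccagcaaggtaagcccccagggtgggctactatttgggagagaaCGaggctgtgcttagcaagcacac
Hoxa9 (chr6:52227371-52227620, minus strand): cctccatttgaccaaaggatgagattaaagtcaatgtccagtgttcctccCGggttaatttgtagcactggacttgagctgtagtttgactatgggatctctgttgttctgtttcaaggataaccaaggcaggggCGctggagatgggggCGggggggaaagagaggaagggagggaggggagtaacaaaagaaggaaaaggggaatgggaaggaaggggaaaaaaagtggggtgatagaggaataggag
Hoxa10, short transcript (chr6:52234940-52235189, minus strand): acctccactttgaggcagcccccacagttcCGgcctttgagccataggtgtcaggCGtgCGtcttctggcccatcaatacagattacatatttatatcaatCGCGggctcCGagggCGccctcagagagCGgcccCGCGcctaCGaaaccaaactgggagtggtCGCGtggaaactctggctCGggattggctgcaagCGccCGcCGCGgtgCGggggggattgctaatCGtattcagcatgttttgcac
Hoxa10, long transcript (chr6:52240855-52241104, minus strand): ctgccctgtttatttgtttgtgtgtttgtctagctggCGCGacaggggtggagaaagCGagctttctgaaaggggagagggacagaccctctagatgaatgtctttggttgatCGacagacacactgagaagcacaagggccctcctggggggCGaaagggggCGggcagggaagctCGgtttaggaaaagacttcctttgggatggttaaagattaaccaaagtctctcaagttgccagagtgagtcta
Evx1 (chr6:52313248-52313497, plus strand): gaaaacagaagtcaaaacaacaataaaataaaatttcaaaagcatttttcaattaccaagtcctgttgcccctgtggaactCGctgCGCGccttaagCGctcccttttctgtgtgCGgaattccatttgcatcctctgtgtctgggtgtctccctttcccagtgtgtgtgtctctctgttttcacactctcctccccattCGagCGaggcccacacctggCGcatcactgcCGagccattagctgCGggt

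The members did not share a type of promoter. In these 250 bases Hoxa9 had 3 CG pairs, Hoxa7 7, the long Hoxa10 transcript 7, Evx1 10, Hoxa11 13, the short Hoxa10 transcript 20 and Hoxa5 28. Of the genes at the floor, Hoxa6 had 24, Hoxa3 18 and Hoxa2 6, within the range of the members. Hoxa13, also at the floor, had 35, above every member. Over the 300 bases from 250 before to 50 after each start, all RefSeq promoters had a median of 7 CG pairs, with quartiles of 3 and 20. Over the same 300 bases Hoxa9 had 4, Hoxa7 9, the long Hoxa10 transcript 12, Evx1 12, Hoxa11 15, the short Hoxa10 transcript 21 and Hoxa5 29. The motifs were searched on both strands of these 300 bases. TTTATG, the core of the site bound by the caudal factors Cdx1 and Cdx2, occurred 2 times before Hoxa7, in none of the windows of the other members, and in 11.9% of 32841 windows. CTTTGAT, the site of the Wnt effectors TCF and LEF, occurred in no member window and in 3.73% of all windows, and the p53 decamer occurred 1 time before Hoxa11 and in 8.36% of all windows. None of these matches overlapped.

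The deposited rpkm values have a floor. No value in the table is below 1 rpkm, so a gene listed at 1 may have any lower level, and ratios against a genotype at the floor are lower bounds. The table has no counts. From the steps of 1 read between values of short genes, 5 libraries were estimated at 44.2 to 47.2 M mapped reads, so 1 rpkm stands for about that many reads per kb, while Trp53flox/flox replicate 1 had too few such genes. Trp53 was at 75.9 and 74.3 rpkm in Trp53+/+, 72.8 and 82.7 in Trp53R270H/R270H, and 1.73 and 2.48 in Trp53flox/flox. The Trp53flox/flox libraries stood apart from each other, with 9.18% of 10042 genes at least 2-fold apart, against 0.0597% in Trp53+/+ and 0.0996% in Trp53R270H/R270H. All 10 epithelial markers were above the floor in every library, including Epcam, Cdh1 and Vil1.

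The 6 genes were at or near the floor without p53R270H and above it in both Trp53R270H/R270H libraries. Hoxa10, a posterior Hox factor of the uterus, limb and blood, was at the floor of 1 rpkm in the 4 other libraries and at 10.1 and 9.72 rpkm in Trp53R270H/R270H (mean 9.93 ± 0.298, s.d., n = 2). This was at least 9.93-fold the level of either other genotype. Hoxa9, a factor of hematopoietic progenitors that drives leukemia when overexpressed, was at the floor in the 4 other libraries and at 6.42 and 5.23 rpkm with p53R270H (5.83 ± 0.836). Evx1, which acts in the posterior embryo and in spinal interneurons, was also at the floor in the 4 others and at 6.10 and 5.53 rpkm with p53R270H (5.81 ± 0.404). For each of these genes the lowest value with p53R270H was over 5 times the highest value elsewhere, and the means of Hoxa9 and Evx1 differed by less than the spread between their replicates.

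**Figure D1:**
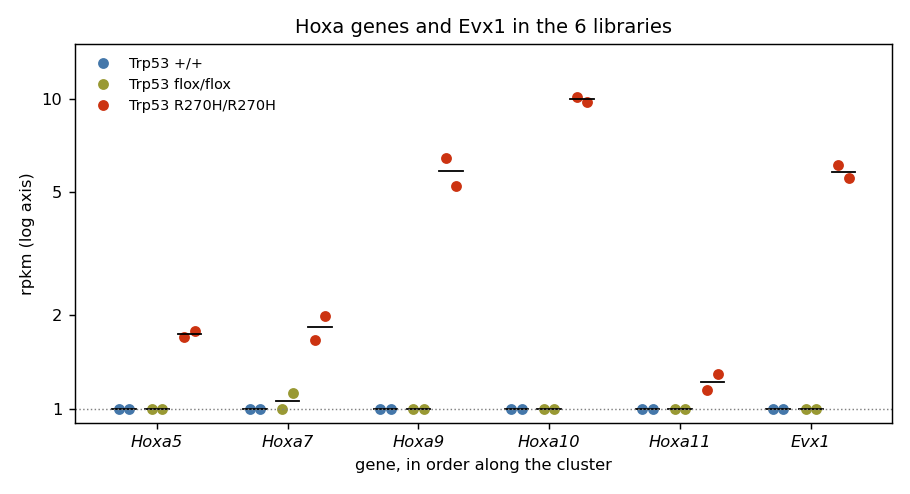
Expression (rpkm, log axis) of the 6 genes in order along the cluster, in the 2 libraries of each genotype. Points are libraries, short lines are genotype means and the dotted line is the floor of 1 rpkm. Both Trp53R270H/R270H points lie above the 4 others for all 6 genes, and Hoxa10 is the highest at 10.1 and 9.72 rpkm.

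The other 3 members were low. Hoxa5, which patterns lung and foregut, was at 1.70 and 1.78 rpkm in Trp53R270H/R270H (1.74 ± 0.0605) and at the floor elsewhere. Hoxa7, a factor of trunk patterning, was at 1.67 and 2.00 rpkm with p53R270H (1.83 ± 0.232), at 1.12 in Trp53flox/flox replicate 2 and at the floor in the 3 remaining libraries. Hoxa11, which acts in limb, kidney and uterus, was at 1.15 and 1.30 rpkm with p53R270H (1.22 ± 0.104) and at the floor elsewhere. These values lie just over the floor, and the lower bound of their ratio to Trp53+/+ stayed under 2 for all 3 genes. Multiplied by the estimated depth, they stood for 75.0 and 80.6 reads per kb for Hoxa5 and 50.7 and 58.6 for Hoxa11, against 448 and 440 for Hoxa10. The groups did not overlap for 6 of 6 members, as the choice of members implied. Among all 12412 genes above the floor in any library, 27.2% had both Trp53R270H/R270H libraries above the 4 others. A mean in Trp53R270H/R270H at least 2-fold that in Trp53+/+ was reached by Hoxa9, Hoxa10 and Evx1, and by 4.99% of the same 12412 genes. Hoxa9, Hoxa10 and Evx1 also passed the filter of 4 rpkm in at least 1 library, and the other 3 did not.

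The order of the levels among the members did not follow their order on the chromosome. Hoxa10 was highest, Hoxa9 and Evx1 came next without differing beyond their spread, then Hoxa7 and Hoxa5, whose ranges overlapped, and Hoxa11 was lowest in both libraries. Hoxa11 thus lay low between its neighbor Hoxa10 and the more distant Evx1. Between the 2 Trp53R270H/R270H libraries, Hoxa9, Hoxa10 and Evx1 were lower in replicate 2, at 0.816, 0.959 and 0.906 times replicate 1. Hoxa5, Hoxa7 and Hoxa11 were higher in replicate 2, at 1.05, 1.20 and 1.13 times replicate 1. Whether these factors differ between the members by more than counting error was not tested.

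Genes above the floor alternated with genes at the floor within the cluster. A gene at the floor may still be expressed just below the level of Hoxa11. From Skap2, the gene before the cluster, to Evx1, RefSeq places 29 genes, of which 20 were in the table. Of these 20, 11 were at the floor in all 6 libraries, including Hoxa2, Hoxa3 and Hoxa4 toward the anterior end, Hoxa6 between Hoxa5 and Hoxa7, and Hoxa13 at the posterior end. Hoxa13 lay between genes above the floor, and 52.618 kb separated it from Evx1. The microRNA gene Mir196b and the antisense genes Hoxaas3 and Hoxa11os were also at the floor, though poly(A) libraries do not capture short RNAs. A further 8 genes were above the floor in both Trp53R270H/R270H libraries and under 2 rpkm in the 4 others. They were the 6 members and 2 noncoding genes.

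The 2 noncoding genes were as high as the strongest members. Evx1os, listed as 5730457N03Rik, starts inside Evx1 and runs on the opposite strand (chr6:52308389-52314832). It was at 14.0 and 11.0 rpkm in Trp53R270H/R270H and at the floor elsewhere. Mira, a noncoding RNA described as a regulator of Hoxa6 and Hoxa7 in stem cells (chr6:52214491-52215288), was at 10.1 and 7.38 rpkm with p53R270H, at 1.56 in Trp53flox/flox replicate 2 and at the floor in the 3 others. Trp53flox/flox replicate 2 was thus the one library without p53R270H that had values over the floor in the cluster, for Mira and for the adjacent Hoxa7. Mira lies within the GENCODE body of Hoxa7 on the same strand, and Evx1 and Evx1os share bases on opposite strands. The libraries were stranded, but whether counting used the strand is not given in the sources used here, so the reads of Evx1 and Evx1os, or of Hoxa7 and Mira, may not be told apart. Hoxa9 and Hoxa10 are also adjacent, and transcripts that join neighboring Hoxa genes could be split between them.

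**Figure D2:**
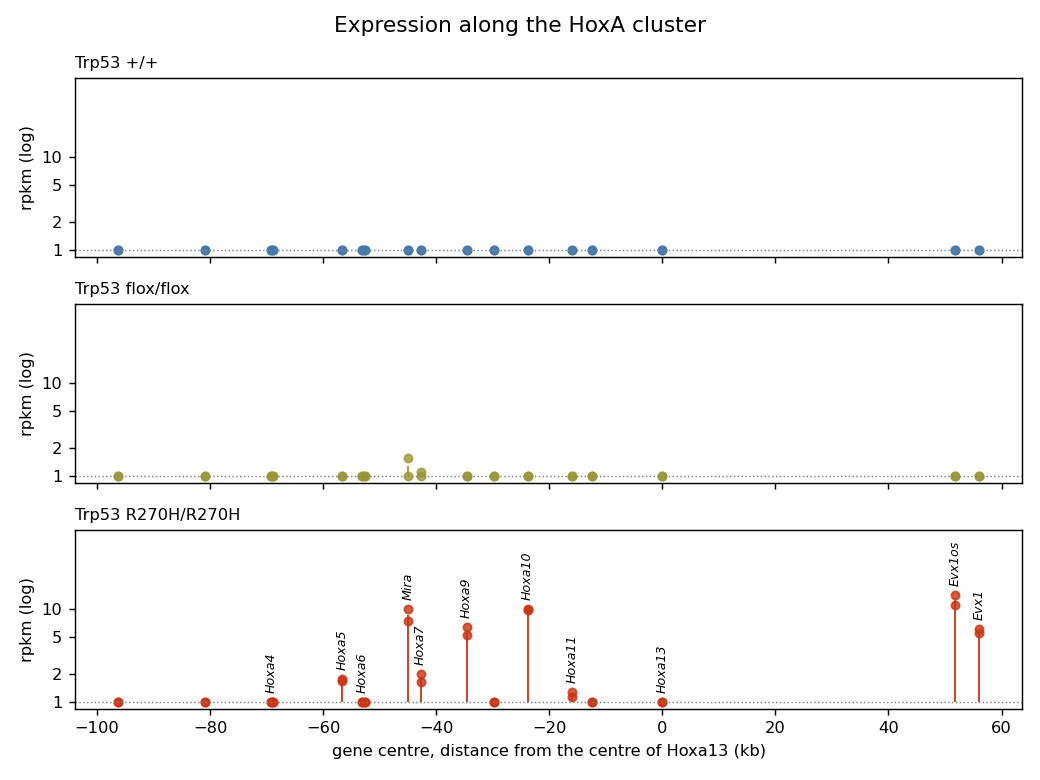
Expression (rpkm, log axis) of genes of the HoxA cluster from Hoxa2 to Evx1 in each genotype, placed by the distance of the gene centre from that of Hoxa13 (kb). Points are libraries, vertical lines reach the genotype mean and the dotted line is the floor of 1 rpkm. In Trp53R270H/R270H, 8 genes from Hoxa5 to Evx1 lie above the floor while Hoxa6 and Hoxa13 stay on it, and in Trp53flox/flox only Mira and Hoxa7 leave it, in replicate 2.

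The genes on either side of the cluster that passed the filter were not at the floor in the other genotypes. Within 1 Mb, 13 genes were in the table, Skap2 included. Of these, 6 were at the floor in all libraries and 7 passed the filter. Skap2, an adaptor protein of immune and epithelial cells, was at 33.1 and 34.0 rpkm in Trp53+/+, 20.3 and 31.0 in Trp53flox/flox, and 39.7 and 34.3 in Trp53R270H/R270H, so both Trp53R270H/R270H values were above the 4 others, the lower one by less than the gap between the Trp53R270H/R270H libraries. Hibadh, an enzyme of valine catabolism and the first gene after Evx1 to pass the filter, was at 20.5 and 23.7, 15.9 and 17.3, and 15.8 and 15.6 rpkm in the same order. Both Trp53R270H/R270H libraries were above the 4 others for 3 of the 7 genes, against 26.5% of all 10042 genes that passed the filter. They were Skap2, the chromatin protein gene Cbx3, at 147 and 146 rpkm against at most 129.9 elsewhere, and the transcription factor gene Nfe2l3, at 11.1 and 10.3 rpkm against at most 9.58. In none of the 3 did the lower Trp53R270H/R270H value exceed 113% of the highest other value. None of the 7 was called between Trp53R270H/R270H and either other genotype by limma at an adjusted p of 0.05 (Benjamini-Hochberg), with 2 at an unadjusted p under 0.05 against Trp53+/+ and 1 against Trp53flox/flox. On all of chromosome 6, the median log2 fold change over Trp53+/+ was 0.02 for 468 genes, against 0.03 for all 10042 genes, and over Trp53flox/flox it was 0.09, against 0.03.

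The step from the floor in 4 libraries to a level above it in both Trp53R270H/R270H libraries was shared by 305 genes, or 0.843% of the 36172 genes in the table. Only the 12412 genes above the floor in any library could show the step, so the share among these is higher. The step was found in 5 members, and Hoxa7 missed it through its value of 1.12 rpkm in Trp53flox/flox replicate 2. Ranked by their mean with p53R270H, Evx1os was 1st at 12.5 rpkm, Hoxa10 4th, Hoxa9 20th, Evx1 21st, Hoxa5 136th and Hoxa11 247th. The corresponding step occurred for 123 genes in Trp53+/+ and for 33 in Trp53flox/flox, none of them members. Of the 305 genes, 299 could be placed on chromosomes and were joined where they lay within 200 kb, a distance chosen after the values were seen. The run of Hoxa5, Hoxa9, Hoxa10, Hoxa11, Evx1os and Evx1 held 6 genes. Of these, 5 were members, chosen for their values with p53R270H, and Evx1os shares bases with Evx1. The length of this run is thus a description and not a test. The next longest run held 3 genes (Tnnt1, Syt5 and Tmem86b), 17 runs held 2, and 256 genes stood alone.

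**Figure D3:**
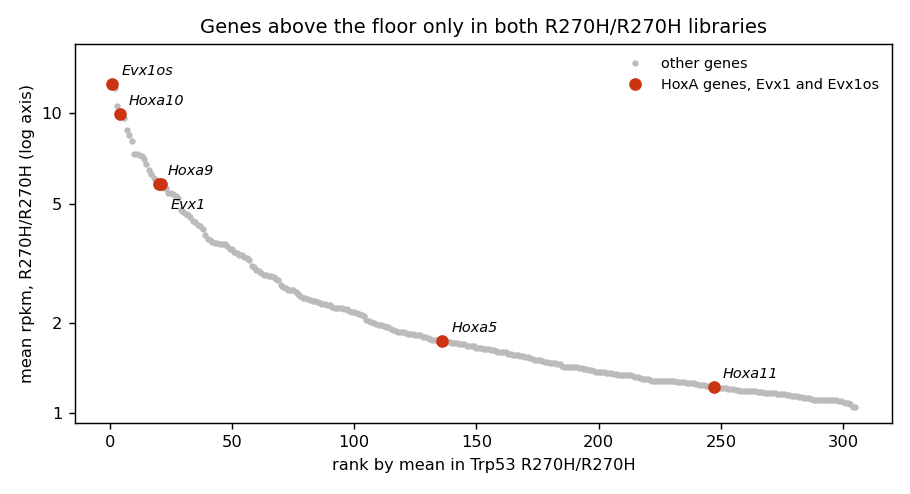
Mean rpkm in Trp53R270H/R270H (log axis) of the 305 genes above the floor in both libraries of that genotype and at the floor in the 4 others, by rank. Red points mark Evx1os and the 5 members with this pattern, with Hoxa10 at rank 4 and Hoxa11 at rank 247.

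By the correlation over the 6 libraries with the mean log2(rpkm + 1) profile of the members, the most alike of 10039 genes were Lmo2, Tmem59l, Otop1, 5930412G12Rik, Gm15340 and Efcab1. All 6 were at the floor in the 4 other libraries, with means in Trp53R270H/R270H of 7.01 rpkm for Lmo2, a factor of blood and endothelial development, 6.77 for Tmem59l, 7.22 for Otop1, a proton channel, 5.64 for 5930412G12Rik, 4.75 for Gm15340 and 10.5 for Efcab1. Pearson r was at least 0.99 for 77 genes. These 6 points are in effect 2 levels, set by libraries that all genes share.

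The Hox genes of the other clusters were at or near the floor. Of the 29 genes of the HoxB, HoxC and HoxD clusters with Evx2, 24 were at the floor in all 6 libraries, and all HoxC and HoxD genes were among them. The 5 others were HoxB genes, and none reached 4 rpkm. Hoxb4, a factor of hematopoietic stem cells, was the only one with both Trp53R270H/R270H libraries above the others, at 1.65 and 1.77 rpkm against the floor. Hoxb3 was at 1.51 and 2.13 rpkm with p53R270H and at 1.51 in Trp53flox/flox replicate 1. Hoxb6, Hoxb7 and Hoxb9 were highest in Trp53flox/flox replicate 1, at 3.57, 1.59 and 2.29 rpkm. Of the HoxB genes, 3 and 5 were above the floor in the Trp53R270H/R270H libraries, 4 in Trp53flox/flox replicate 1, 0 in its replicate 2, and 1 and 0 in Trp53+/+, so their values over the floor were not tied to 1 genotype.

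Genes known to act on Hox genes were compared with limma on log2(rpkm + 1), a scale that understates the change of low genes. Among all 10042 genes tested, 5.86% were called higher and 6.36% lower in Trp53R270H/R270H than in Trp53+/+, and 13.6% higher and 11% lower than in Trp53flox/flox, at a Benjamini-Hochberg adjusted p under 0.05. Between Trp53flox/flox and Trp53+/+ the shares were 4.38% higher and 6.9% lower. Cdx1 and Cdx2, the ParaHox factors that set intestinal identity and activate Hox genes, were not called in either comparison, also at an unadjusted p under 0.05 (limma, 0 of 2). Cdx1 was at 20.8 and 19.8 rpkm in Trp53+/+, 37.0 and 4.73 in Trp53flox/flox and 30.8 and 32.3 in Trp53R270H/R270H. Both Trp53R270H/R270H values were thus above both Trp53+/+ values. The log2 fold change of Cdx1 over Trp53+/+ was 0.62 ± 0.85 (s.e.), with a spread shared with the distant Trp53flox/flox libraries. Cdx2 was at 50.2 and 47.6 rpkm in Trp53+/+, 104 and 52.8 in Trp53flox/flox and 40.8 and 49.5 in Trp53R270H/R270H, so 1 Trp53flox/flox library stood above the rest.

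In Polycomb repressive complex 1, which ubiquitinates histone H2A, 3 of 16 genes rose and none fell against Trp53+/+, and 4 rose and 2 fell against Trp53flox/flox. The list's median log2 fold change was 0.08 and 0.19, against 0.03 for all genes in both comparisons. Pcgf1, a subunit of the variant complex that binds unmethylated CG-rich DNA, was at 5.67 and 5.58 rpkm in Trp53+/+, 7.31 and 6.53 in Trp53flox/flox and 14.8 and 13.2 in Trp53R270H/R270H, a log2 fold change of 1.18 ± 0.12 (limma adjusted p = 0.00713) over Trp53+/+ and 0.92 ± 0.12 (adjusted p = 0.0103) over Trp53flox/flox. It was called in 11 and 10 of 15 alternative settings. Bmi1, the subunit that restrains Hox genes in the embryo, rose from 13.8 and 13.0 rpkm in Trp53+/+ and 15.8 and 14.8 in Trp53flox/flox to 23.9 and 22.6 with p53R270H (limma adjusted p = 0.0152 and 0.0197). Phc1, a polyhomeotic subunit, rose by 0.78 on the log2 scale over Trp53+/+ (limma adjusted p = 0.0417), and its log2 fold change over Trp53flox/flox was 0.29 (adjusted p = 0.218). Ring1, a ubiquitin ligase subunit, was lower than in Trp53flox/flox by the same test, with a log2 fold change of -0.75 (adjusted p = 0.0367), and was at -0.50 against Trp53+/+ (adjusted p = 0.127). The remaining calls against Trp53flox/flox were Rnf2 and Pcgf6, which were higher, and Pcgf5, which was lower; they are outside the naming rule and named here to complete the count. Against Trp53flox/flox the subunits thus moved in both directions.

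No gene of Polycomb repressive complex 2, which methylates histone H3 at lysine 27, was called by limma in either comparison (0 of 10 tested, 2 at an unadjusted p under 0.05 in each), and the list's medians were 0.24 and 0.21. Of the MLL, MOZ and Dot1l activators, 0 of 20 tested were called by limma against Trp53+/+ (3 at an unadjusted p under 0.05), and the medians of the list were 0.14 and 0.36. Against Trp53flox/flox, Mllt3, a reader of acetylated histones, was higher by 0.61 on the log2 scale (limma adjusted p = 0.0251) and Men1, the MLL partner menin, had a log2 fold change of -0.86 (adjusted p = 0.0205). Men1 was at 16.5 and 15.0 rpkm in Trp53+/+, 31.7 and 25.3 in Trp53flox/flox and 13.9 and 16.4 in Trp53R270H/R270H, so the difference lay in the high Trp53flox/flox values. Of the retinoic acid receptors and Cyp26 enzymes, which carry the signal that activates Hox genes in the embryo, 1 of 6 tested was called against Trp53+/+ and none against Trp53flox/flox by limma (2 at an unadjusted p under 0.05), with medians of -0.15 and -0.05. Rarb, the receptor gene that is itself induced by retinoic acid, was at 2.32 and 2.12 rpkm in Trp53+/+, 4.27 and 2.88 in Trp53flox/flox and 6.26 and 6.05 in Trp53R270H/R270H, with log2 fold changes of 1.15 (limma adjusted p = 0.0231) and 0.66 (adjusted p = 0.0546).

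**Figure D4:**
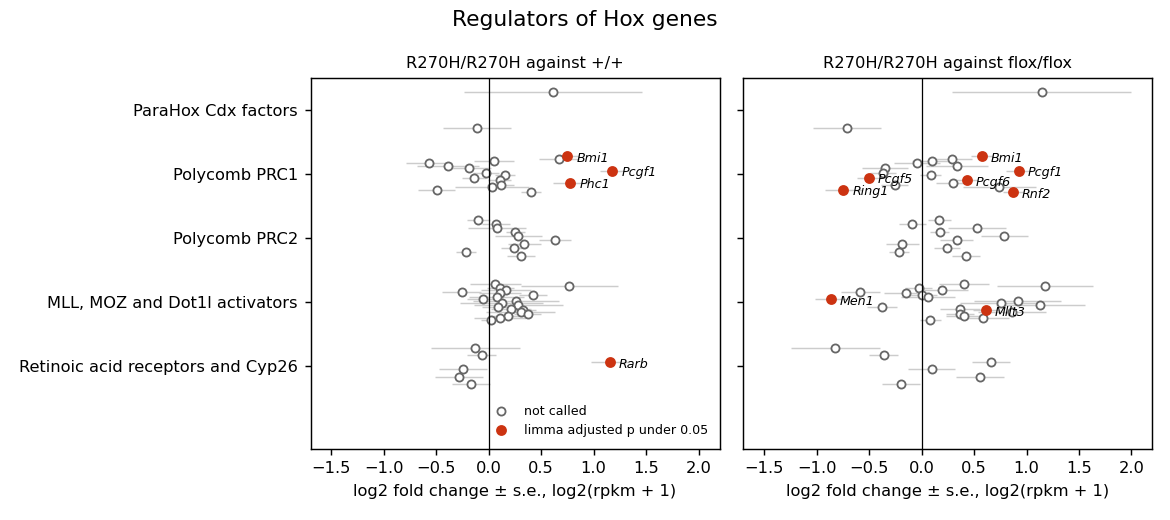
Log2 fold change of Trp53R270H/R270H against Trp53+/+ and against Trp53flox/flox, on the log2(rpkm + 1) scale, of the tested genes of 5 lists. Points are genes, bars are standard errors and filled points are genes with a limma adjusted p under 0.05. In Polycomb complex 1, Pcgf1 and Bmi1 are filled on the right of 0 in both panels, and Polycomb complex 2 has no filled point.

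Genes listed for regions of the gut were compared because Hox genes differ along it. The region given for each gene was not checked, and whether the gene marks it in these organoids was not tested. The counts and medians are thus not a measure of regional identity. Of 7 tested genes listed for the proximal small intestine, 1 rose and 2 fell against Trp53+/+. Against Trp53flox/flox 2 rose, and the medians were 0.35 and 0.41. Cubn, the cobalamin receptor, was higher against both, with log2 fold changes of 2.21 (limma adjusted p = 0.0323) and 1.79 (adjusted p = 0.0351). It was the 1 gene of this list that rose against Trp53+/+, and its place in the list was not checked. Gata4, the factor of the jejunum, had a log2 fold change of -1.04 against Trp53+/+ (limma adjusted p = 0.0385) and was at 13.7 and 16.8 rpkm with p53R270H against 32.3 and 32.1. The iron exporter Slc40a1 had a log2 fold change of -0.89 against Trp53+/+ (limma adjusted p = 0.0276). It was also lower in Trp53flox/flox than in Trp53+/+ (limma adjusted p = 0.0147). Its levels were 6.87 and 6.71 rpkm in Trp53flox/flox and 9.88 and 8.90 in Trp53R270H/R270H. The fatty acid binding protein Fabp1 had a log2 fold change of 1.80 against Trp53flox/flox (limma adjusted p = 0.0193). Of 4 tested genes listed for the ileum, none was called against Trp53+/+ by limma (1 at an unadjusted p under 0.05). Gpx2, a glutathione peroxidase in this list, had a log2 fold change of -1.55 against Trp53flox/flox (limma adjusted p = 0.0109). Of 3 tested genes listed for the colon, Ang4, an antimicrobial ribonuclease, and Mettl7b were lower than in Trp53+/+, with log2 fold changes of -1.92 (limma adjusted p = 0.0287) and -1.68 (adjusted p = 0.0105). Limma also called Ang4 and Mettl7b lower in Trp53flox/flox than in Trp53+/+ (adjusted p = 0.0134 and 0.00995). Mettl7b was at 7.02 and 8.65 rpkm in Trp53+/+, 1.11 and 1 in Trp53flox/flox and 2.14 and 1.42 in Trp53R270H/R270H. Ang4 was at 152 and 136 rpkm in Trp53+/+, 23.9 and 11.1 in Trp53flox/flox and 35.6 and 38.7 in Trp53R270H/R270H. All organoids came from small intestinal tumors, so its level is not read as a sign of colon identity. The medians of the ileum genes were -0.16 and -1.10, and those of the colon genes were -1.68 and 1.14, on 4 and 3 genes.

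These calls rest on few libraries. Without Trp53+/+ replicate 1, Trp53+/+ replicate 2 or Trp53R270H/R270H replicate 1, no gene was called against Trp53+/+ by limma, with 1545, 1442 and 1569 genes at an unadjusted p under 0.05, and without Trp53R270H/R270H replicate 2 the calls were 72 higher and 39 lower, against 588 and 639 with all libraries. Without Trp53flox/flox replicate 1 or replicate 2 they were 3140 and 3158 higher and 2597 and 2588 lower. Against Trp53flox/flox, the 1362 higher and 1107 lower genes became 255 and 123 without Trp53+/+ replicate 1, 252 and 130 without Trp53+/+ replicate 2, 135 and 30 without Trp53R270H/R270H replicate 1, and 159 and 95 without Trp53R270H/R270H replicate 2. Without Trp53flox/flox replicate 1 they became 2939 and 2425, and without its replicate 2 they became 3854 and 3387. Where 1 library of a genotype was left, it was assumed to vary like the others. With 2 libraries against 2, an exact permutation test of a single gene cannot give a two-sided p under 33.3%.

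Markers of other cell types were given beside the members because mesenchymal cells use Hox genes. Of 12 mesenchymal markers, including Col1a1, Col1a2, Col3a1, Dcn, Pdgfra and Myh11, only Acta2 was above the floor in Trp53R270H/R270H, at 1.53 and 1.59 rpkm, and the summed level was 12.5 and 12.6 rpkm, where 12 means that all are at the floor. The sum was 12 in both Trp53+/+ libraries and in Trp53flox/flox replicate 1, and 24.6 in Trp53flox/flox replicate 2, with 5 markers off the floor. Trp53flox/flox replicate 2, with the highest mesenchymal sum, had Hoxa7 at 1.12 rpkm and Mira at 1.56 rpkm and the 5 other members at the floor, and the part of these cells in its Hoxa7 and Mira values was not tested. Of 6 endothelial markers, Pecam1, Kdr and Emcn were at the floor in every library, and the summed level was 6.20 and 6.13 rpkm with p53R270H, 24.0 and 22.6 in Trp53+/+, and 6 and 28.7 in Trp53flox/flox. The others, Cdh5, Tek and Vwf, were above the floor in both Trp53+/+ libraries. Limma called Cdh5 and Vwf lower in Trp53R270H/R270H than in Trp53+/+ (adjusted p = 0.0224 and 0.00459). It also called them lower in Trp53flox/flox than in Trp53+/+ (adjusted p = 0.0411 and 0.00781). Of 8 immune markers only Cd68 left the floor, at 2.22 and 2.41 rpkm with p53R270H and 2.06 to 11.1 elsewhere, and of 7 neural and glial markers only Ret did, at 1.04 rpkm in Trp53R270H/R270H replicate 1. The 10 epithelial markers summed to 2324 and 2501 rpkm with p53R270H, 2941 and 2875 in Trp53+/+, and 4680 and 4297 in Trp53flox/flox, and limma called 1 of them lower against Trp53+/+ and 5 lower against Trp53flox/flox. The part of this difference in the list results against Trp53flox/flox was not tested. In such bulk samples, more cells with a gene on and more RNA per cell cannot be told apart.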

How the data were processed

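RNA-seq was analyzed for 6 libraries, 2 for each of 3 genotypes, grouped by the sample titles, where the genotypes appear as Apc(D716) with p53(+/+), p53(flox/flox) and p53(M/M). The authors mapped reads to mm10 and calculated the deposited rpkm values (mapped reads scaled by gene length and library depth) with StrandNGS; its version, annotation and filters are not given in the sources used here. Values under 1 rpkm appear to have been raised to 1, which is inferred from the table.

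Python 3.11.15, numpy 2.4.6, pandas 2.3.3, matplotlib 3.10.9, R 4.3.3 and limma 3.58.1 were used. The 10042 genes that reached 4 rpkm in any library were fitted with limma (lmFit, eBayes with trend) as log2(rpkm + 1) over all 6 libraries, with two-sided p-values adjusted by Benjamini-Hochberg at 0.05. The members and gene lists were chosen with earlier results of these data known. One list gene, Prac1, was not matched, and some results that meet the naming rule are not reported here. In each list, called genes were named, at most the 4 with the largest change against Trp53+/+. The fit was tested on simulated data. Depth was estimated from genes under 230 nt, with a tolerance of 0.1 read for a whole number, and intervals for counting error were not computed. The alternatives were another pseudocount, filters, scalings, eBayes without trend, fits of the compared genotypes only, a block on the replicate number and leaving out each library.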

Additional observations from a re-analysis of the deposited data

How the results depend on the processing

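The members were chosen for high values with p53R270H, so leaving out a library could not put these values below the other genotypes and gives no check of them. Under median-of-ratios and upper-quartile scaling their lower-bound ratios over Trp53+/+ were 1.72 and 1.75 for Hoxa5, 1.81 and 1.84 for Hoxa7, 5.75 and 5.85 for Hoxa9, 9.79 and 9.96 for Hoxa10, 1.20 and 1.23 for Hoxa11 and 5.73 and 5.83 for Evx1. The floor, not the depth, limits the lower levels.

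The counts of calls moved; the cause was not tested, except that a looser filter adds genes. With all genes above the floor in any library, 1039 were higher against Trp53+/+, and 2 gut region genes were higher. With the replicate number as a block, 255 genes were higher and 295 lower against Trp53+/+, 668 and 488 against Trp53flox/flox, and 71 and 209 in Trp53flox/flox against Trp53+/+. With this block, 3 cofactor and regulator genes were higher against Trp53+/+, 2 were higher and 1 lower against Trp53flox/flox, and 1 gut region gene was higher against Trp53flox/flox. Same-numbered libraries came from different mice, and their deviations correlated at 0.12, -0.29 and -0.20, so the numbers were not taken as pairs. With the Trp53R270H/R270H numbers exchanged, a pairing chosen after seeing the data, 408 were higher and 533 lower against Trp53+/+.

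With only the compared genotypes fitted, 3136 genes were higher and 2585 lower against Trp53+/+, 257 and 121 against Trp53flox/flox, and 9 and 38 in Trp53flox/flox against Trp53+/+. In that fit 23 cofactor and regulator genes were higher and 6 lower against Trp53+/+ (5 and 0 with all genotypes), and 3 gut region genes were higher, and against Trp53flox/flox none of either group was called by limma, with 11 and 6 at an unadjusted p under 0.05. Without 1 library, calls against Trp53+/+ ranged from 0 to 3158 higher and 0 to 2597 lower, against Trp53flox/flox from 135 to 3854 and 30 to 3387, and in Trp53flox/flox against Trp53+/+ from 0 to 3201 and 8 to 3690. Cofactor and regulator genes ranged from 0 to 23 higher and 0 to 6 lower against Trp53+/+ and from 0 to 29 and 0 to 17 against Trp53flox/flox. Gut region genes ranged from 0 to 3 and 0 to 6, and from 0 to 6 and 0 to 5. In the comparison in which it was called, no named gene changed sign in any of the 15 alternatives.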
